A study of Homo sapiens with 6 samples.

Results

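The small nucleolar RNA host genes are long noncoding RNA genes whose introns carry small nucleolar RNAs (snoRNAs). Their levels were compared between Jurkat cells (an established line from a human T cell leukemia) that overexpress PDCD1^28, a splicing isoform of the PD-1 receptor, and Jurkat cells with the vector. The members were the table's rows with the symbol SNHG and a number, together with GAS5, ZFAS1, EPB41L4A-AS1 and DANCR, which gave 32 of 59248 gene symbols. Bulk libraries were made from total RNA with a TruSeq kit, 3 from each kind of cell. In the growth protocol the line is called Jurkat KO-1, a name shared by all 6 libraries and not explained in the labels used here. The labels name neither the promoter of the construct nor whether each line is 1 clone, and they do not say whether replicates are separate cultures, so p-values measure a spread between libraries that could be technical.

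A host gene is transcribed as a long precursor, the exons are spliced together and the snoRNAs are trimmed out of the introns. C/D box snoRNAs guide ribose methylation of ribosomal RNA, H/ACA box snoRNAs guide its pseudouridylation, and the related Cajal body RNAs guide the same modifications in spliceosomal RNAs. Many spliced host transcripts begin with a terminal oligopyrimidine tract, as ribosomal protein mRNAs do, and several, GAS5 among them, are degraded by nonsense-mediated decay on ribosomes. GAS5, SNHG1 and DANCR are also widely studied as regulatory RNAs in T cells and tumors.

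Pyrimidine runs near the starts of 9 host genes are shown because many host transcripts are known to begin with an oligopyrimidine tract. Each line gives 60 bases around the RefSeq start (GRCh38.p14, 30 bases to each side), with capitals for a C followed by at least 4 C or T bases whose C lies within 10 bases of the start.
ZFAS1: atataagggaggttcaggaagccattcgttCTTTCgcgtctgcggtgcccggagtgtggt
SNHG32: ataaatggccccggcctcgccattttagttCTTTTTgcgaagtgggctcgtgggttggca
SNHG12: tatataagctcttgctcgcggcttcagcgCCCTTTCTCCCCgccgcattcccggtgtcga
SNHG29: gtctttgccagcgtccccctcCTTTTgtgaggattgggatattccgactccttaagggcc
SNHG8: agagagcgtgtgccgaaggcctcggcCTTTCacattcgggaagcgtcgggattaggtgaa
SNHG5: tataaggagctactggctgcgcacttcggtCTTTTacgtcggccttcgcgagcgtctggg
SNHG16: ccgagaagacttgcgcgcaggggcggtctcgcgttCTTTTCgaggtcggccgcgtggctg
SNHG17: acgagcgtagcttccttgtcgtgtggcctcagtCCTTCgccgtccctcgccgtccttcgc
SNHG7: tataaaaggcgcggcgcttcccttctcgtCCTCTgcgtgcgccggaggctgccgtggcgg
The windows lie at chr20:49278612-49278671 (plus strand), chr6:31834886-31834945 (plus), chr1:28581844-28581903 (minus), chr17:16438957-16439016 (plus), chr4:118278732-118278791 (plus), chr6:85678704-85678763 (minus), chr17:76557734-76557793 (plus), chr20:38435299-38435358 (minus) and chr9:136728155-136728214 (minus), in the order of the lines. The first 5 genes were higher in overexpression, SNHG5 did not pass the test, and the last 3 were lower, as described below. Such a run stood at 16 of the 28 members with a RefSeq promoter (57.1%) and at 32.5% of the 35116 promoters in the table. It stood at 6 of 12 members called higher, at 4 of 4 called lower and at 5 of 10 not called, so it was present on either side of the comparison. GAS5 and SNHG1, both called higher, had no such run in their windows. The GAS5 window (chr1:173869016-173869075, minus) lies upstream of its GENCODE 29 start at 173868882. The SNHG14 window (chr15:24823578-24823637, plus) likewise lies upstream of its GENCODE 29 start at 24978583. The windows of SNHG14 and SNHG4, both with a counted run, overlap an exon of a coding gene. The runs of SNHG29 and SNHG14, of 5 bases each, begin at positions -9 and -7 and so lie before the RefSeq start. Those of SNHG16 and SNHG11 begin at positions 6 and 10. These counts therefore depend on the start and the rule used, and do not show that a transcript begins with a tract or lacks one.

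The libraries held 59911578 to 84220970 estimated counts, and PDCD1 itself had 945, 1059 and 807 estimated counts in overexpression against 14, 18 and 15 in vector. All 12 T cell markers looked at were detected. In overexpression 8 of them were called lower (66.7%) and 1 higher (8.33%), where 23.4% and 22.6% of all genes tested were. Their summed levels were 2620 to 2660 CPM in overexpression and 3000 to 3100 CPM in vector. Abundant markers weigh most in these sums. CD2 dropped from 25.6 CPM in vector to 4.32 CPM in overexpression (-2.57 on the log2 scale, edgeR adjusted p = 3.02e-06). CD7 dropped from 74.4 to 17.5 CPM (-2.09, edgeR adjusted p = 3.08e-06). TRBC1, the marker called higher, went from 414 to 555 CPM (0.42, edgeR adjusted p = 0.000427). B cell, myeloid, epithelial and natural killer cell markers, 6 each, summed to 28.9 to 37.0, 1.11 to 1.47, 0.785 to 1.60 and 4.21 to 4.59 CPM in overexpression. The same sums in vector were 41.8 to 60.1, 1.33 to 2.02, 0.370 to 0.517 and 3.05 to 6.27 CPM. EPCAM and NCR1 had no counts in any library. The part of these marker differences in the results below was not tested. Every library is of the Jurkat line, and bulk RNA cannot tell fewer cells with a transcript from less of it per cell.

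More host genes rose than fell. Of 30 members tested, 13 were called higher in overexpression and 5 lower at an adjusted p under 0.05 in edgeR's quasi-likelihood test, against 22.6% and 23.4% of all genes tested. The members' shares were 43.3% and 16.7%, and their median log2 fold change was 0.28 where that of all 21055 genes tested was 0.016. SNHG22 and SNHG28 reached the filter's level in all 3 libraries of overexpression but not in all 3 of vector, so they were tested only through the group where they are high. Without them 11 of 28 rose and 5 fell (39.3% and 17.9%), against 23.0% and 26.8% of all genes that reach the level in every vector library. Of all 30 tested, 18 were called in either direction, against 46.1% of all genes tested. Among the 25 members that averaged 100 estimated counts or more, 11 rose and 5 fell, where 26.8% and 31.1% of all such genes did (57.9% in either direction). SNHG27 had no counts and SNHG18 had 1 estimated count in 1 vector library, so neither was tested. Library values were fully separated between groups for 15 members higher and 6 lower in overexpression, where 30.1% and 28.6% of all genes tested were so separated. Most changes were small: with a fitted change of at least 1.5-fold required as well, 6 members were higher and 2 lower (20% and 6.67%), against 14.0% and 11.4% of all genes tested. Without SNHG22 and SNHG28 the 1.5-fold count was 4 higher and 2 lower of 28 (14.3% and 7.14%), where genes that reach the level in every vector library had 13.1% in each direction, so at this size the members' share higher was near that of all genes.

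**Figure D1:**
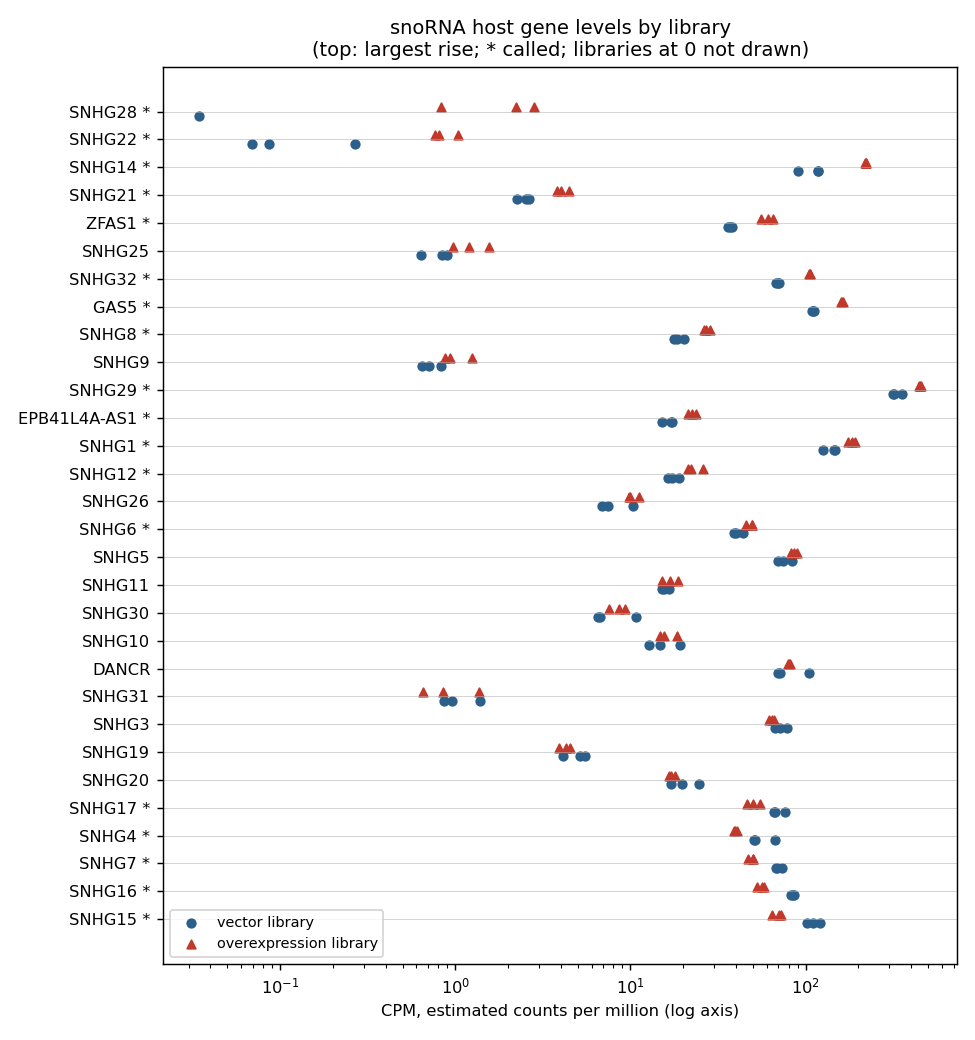
Level of each tested host gene in each library, in CPM on a log axis, with overexpression libraries as red triangles and vector libraries as blue circles; an asterisk marks members past the test. SNHG29 lies furthest right in either group, the triangles lie right of the circles in 15 members, and they lie left of them in 6.

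Together the members held 0.194%, 0.197% and 0.195% of all estimated counts in the overexpression libraries and 0.151%, 0.158% and 0.151% in the vector libraries. The means were 0.195% ± 0.00193 and 0.153% ± 0.00379 (SD, n = 3 each), and the groups did not overlap (exact two-sided permutation p = 0.1, the smallest that 3 against 3 allows). These shares are of raw totals, without the TMM factors (1.03 to 1.04 in overexpression, 0.959 to 0.969 in vector). Abundant members weigh most in them. SNHG29 had means of 452.5 and 330.0 CPM and SNHG14 of 220.3 and 108.2 CPM, in overexpression and vector, while 5 members were called lower. Per kilobase of annotated exon, SNHG29 had the highest level, 120.4 CPM per kb in overexpression and 87.8 in vector. SNHG32 followed with 58.9 and 38.4, SNHG1 with 49.0 and 37.1 and GAS5 with 44.4 and 30.4 CPM per kb. That order is the one in overexpression; in vector DANCR (35.8), SNHG6 (32.9) and SNHG15 (30.5 CPM per kb) also stood above GAS5. SNHG14, high in total counts, came to 5.09 and 2.50 CPM per kb because its annotated exons add up to 43324 bases.

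RefSeq places C/D box snoRNAs within 14 of the tested members, and 8 of these (57.1%) rose and 1, SNHG16 (7.14%), fell, where 22.6% and 23.4% of all genes tested did (median log2 fold change 0.40). Of 11 members with H/ACA box snoRNAs only, 2 rose (18.2%, near the share of all genes) and 4 fell (36.4%; median -0.15). Of 4 members with a Cajal body RNA, SNHG21 and SNHG22 rose, SNHG22 being tested only through overexpression, and none fell at the threshold; SNHG10 and SNHG20 had log2 fold changes of 0.06 ± 0.16 and -0.25 ± 0.14 (SE). SNHG28 has no small RNA within it in RefSeq. The difference between these classes was not tested.

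**Figure D2:**
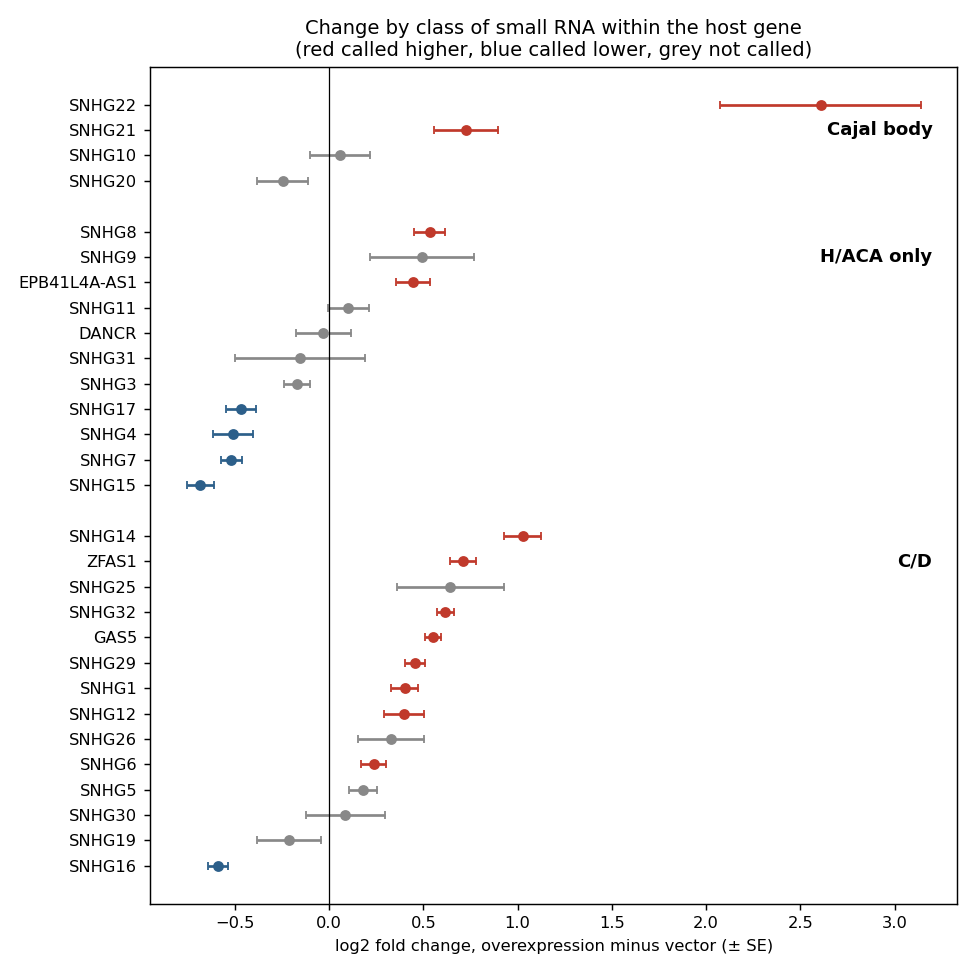
Log2 fold change of each tested host gene, overexpression minus vector, with its standard error, grouped by the class of small RNA within it; red was called higher, blue lower and grey neither. Most points of C/D hosts, GAS5 and SNHG12 included, lie right of 0. Those of hosts with H/ACA snoRNAs only lie on either side, and SNHG28, at 7.38, is not drawn.

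Among the C/D hosts, SNHG32 and GAS5 had the smallest adjusted p. GAS5, whose transcript accumulates when growth stops, lies on chromosome 1 (173863900 to 173868882, minus strand) and spans 10 C/D snoRNAs and 1 H/ACA snoRNA. It stood at 161, 159.7 and 164 CPM in overexpression and at 108, 110.1 and 112 CPM in vector. The vector libraries lay close together and well below the others, and the rise was 1.46-fold (log2 fold change 0.55 ± 0.042, SE; edgeR adjusted p = 3.17e-05). SNHG32, a host gene of the major histocompatibility region (chromosome 6, 31834608 to 31839766) that GENCODE 29 still lists as the coding gene C6orf48, stood at 106, 105 and 107 CPM against 70.6, 67.6 and 69.3 CPM. That was 1.53-fold higher (0.62 ± 0.044; edgeR adjusted p = 2.28e-05), again with no overlap.

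ZFAS1, named as antisense to the start of ZNFX1 (chromosome 20, 49278178 to 49295738), carries SNORD12, SNORD12B and SNORD12C. Its levels were 61.4, 65.3 and 55.6 CPM in overexpression and 36.8, 38.1 and 36.3 CPM in vector, a 1.64-fold rise (log2 fold change 0.71 ± 0.069; edgeR adjusted p = 0.000106). The lowest overexpression library was thus far above the highest vector library. SNHG29, the most abundant member, carries SNORD49A, SNORD49B and SNORD65 (chromosome 17, 16438822 to 16478678). It reached 454, 459 and 445 CPM against 315, 357 and 318 CPM, 1.37-fold higher (0.46 ± 0.055; edgeR adjusted p = 0.000326), with vector replicate 2 the highest of its group.

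SNHG1, which carries 8 C/D snoRNAs from SNORD22 to SNORD31 and was early described as a gene whose introns are its conserved part, lies on chromosome 11 (62851988 to 62855914, minus strand). It stood at 176, 192 and 185 CPM in overexpression and at 146, 125 and 148 CPM in vector, 1.32-fold higher (log2 fold change 0.40 ± 0.071; edgeR adjusted p = 0.00225). Here vector replicate 2 was the lowest library of all. SNHG12 (chromosome 1, 28578538 to 28583132), host of SNORD99 and 3 H/ACA snoRNAs, had 22.2, 26.0 and 21.2 CPM against 18.99, 17.3 and 16.5 CPM (0.40 ± 0.11; edgeR adjusted p = 0.0152). Its call was lost without overexpression replicate 2 (adjusted p = 0.0618) or vector replicate 3 (adjusted p = 0.057). SNHG6 (chromosome 8, 66921684 to 66926398), host of SNORD87, had 45.7, 49.6 and 49.7 CPM against 40.0, 44.2 and 38.9 CPM, and the gap between the groups was narrow (0.24 ± 0.068; edgeR adjusted p = 0.0221). That call was lost without any 1 of 4 libraries, overexpression replicates 2 and 3 and vector replicates 1 and 3, with adjusted p from 0.083 to 0.0876, and with no filter (adjusted p = 0.068).

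SNHG14 had the largest change among the abundant members. It is the long transcript of the imprinted Prader-Willi region on chromosome 15 (24978583 to 25419462), it carries 83 C/D snoRNAs including the SNORD115 and SNORD116 clusters, and its far part runs antisense to UBE3A. It was at 221, 222 and 218 CPM in overexpression and at 117, 90.3 and 117 CPM in vector, 2.04-fold higher (log2 fold change 1.03 ± 0.096; edgeR adjusted p = 8.8e-05). The overexpression libraries were nearly equal, and vector replicate 2 was below the other vector libraries. SNRPN, a spliceosomal protein gene on the same strand that shares annotated exon sequence with it, rose as well (0.87 ± 0.053; edgeR adjusted p = 1.23e-05), and so did UBE3A, a ubiquitin ligase gene on the opposite strand (0.17 ± 0.041; edgeR adjusted p = 0.00908). The strand setting of the counting is not given in the sources used here, so reads of overlapping genes cannot be told apart.

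SNHG16 was the C/D host that fell. It carries SNORD1A, SNORD1B and SNORD1C (chromosome 17, 76557766 to 76565348) and stood at 58.3, 53.2 and 56.7 CPM in overexpression and 86.2, 82.1 and 84.4 CPM in vector (log2 fold change -0.59 ± 0.053; edgeR adjusted p = 7.5e-05). All 3 overexpression libraries lay far below all 3 vector libraries. The other 5 tested C/D hosts, SNHG5, SNHG19, SNHG25, SNHG26 and SNHG30, did not pass. SNHG5, host of SNORD50A and SNORD50B, lay closest to the threshold (0.18 ± 0.075; edgeR adjusted p = 0.0829) and passed without vector replicate 2 (0.25; adjusted p = 0.00295), with the replicate number as a block (adjusted p = 0.0496) and with upper-quartile factors (adjusted p = 0.0445). SNHG26 passed without vector replicate 2 too, at 0.52 (adjusted p = 0.0105) where the value over all libraries was 0.33 ± 0.17. SNHG25, host of SNORD104, had 78, 72 and 99 estimated counts in overexpression and 52, 68 and 43 in vector, without overlap (0.64 ± 0.28; edgeR adjusted p = 0.0989). SNHG19 and SNHG30 overlapped between the groups, with -0.21 ± 0.17 and 0.09 ± 0.21.

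Of the H/ACA hosts, 4 fell. SNHG15, host of SNORA9 (chromosome 7, 44983023 to 44986961), is known as a short-lived RNA; it was at 64.5, 72.8 and 70.3 CPM in overexpression and at 111, 102 and 121 CPM in vector (log2 fold change -0.68 ± 0.073; edgeR adjusted p = 0.000174). SNHG7, host of SNORA17A and SNORA17B (chromosome 9, 136721366 to 136728184), was at 47.1, 50 and 50.1 CPM against 68.7, 73.8 and 68.2 CPM (-0.52 ± 0.056; edgeR adjusted p = 0.000172). Each of these was clear of overlap by more than the range within either group.

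SNHG4, host of SNORA74A and SNORA74D (chromosome 5, 139274102 to 139284899), was at 40.6, 39.1 and 39.8 CPM in overexpression and at 51.0, 67.1 and 51.8 CPM in vector (log2 fold change -0.51 ± 0.10; edgeR adjusted p = 0.0047). Vector replicate 2 stood apart here, and without it the change was smaller, -0.38, and still called (adjusted p = 0.000215). SNHG4 shares exon sequence with MATR3, which had a log2 fold change of 0.27 ± 0.15 (edgeR adjusted p = 0.17). SNHG17 (chromosome 20, 38420588 to 38435353), host of 4 members of the SNORA71 family, was at 46.6, 54.8 and 50.2 CPM against 65.9, 76.2 and 67.3 CPM (-0.47 ± 0.080; edgeR adjusted p = 0.00198). Its neighbour SNHG11 (chromosome 20, 38446578 to 38450921), host of SNORA60 and SNORA71E, overlapped between groups (0.10 ± 0.11; edgeR adjusted p = 0.465).

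The hosts with H/ACA snoRNAs only that rose were EPB41L4A-AS1 and SNHG8, while GAS5 and SNHG12, which carry both classes, are given above. EPB41L4A-AS1, host of SNORA13 (chromosome 5, 112160526 to 112164276), had 22.5, 23.7 and 21.4 CPM in overexpression and 17.1, 17.4 and 15.1 CPM in vector (log2 fold change 0.44 ± 0.091; edgeR adjusted p = 0.00455). SNHG8, host of SNORA24 (chromosome 4, 118278709 to 118279823), had 28.4, 26.9 and 26.2 CPM against 20.3, 17.8 and 18.4 CPM (0.53 ± 0.082; edgeR adjusted p = 0.00114). Neither gene's groups overlapped, and the calls held with each library left out.

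DANCR, host of SNORA26 (chromosome 4, 52712404 to 52720351) and known for holding cells undifferentiated, showed no call and a lone high library. It was at 79.5, 81.1 and 80.1 CPM in overexpression and at 71.5, 104.9 and 69.2 CPM in vector. The overexpression libraries thus lay between vector replicate 2 and the other vector libraries (log2 fold change -0.03 ± 0.15; edgeR adjusted p = 0.882). Without vector replicate 2 the change was 0.18 and called higher (adjusted p = 0.00416). Vector replicate 2 was the highest vector library in 17 of the 30 tested members, against 8380 of the 21055 genes tested. SNHG3, host of SNORA73A and SNORA73B, had a log2 fold change of -0.17 ± 0.067 (edgeR adjusted p = 0.0697) with groups that did not overlap, and passed without vector replicate 3 (-0.23; adjusted p = 0.0276). SNHG9, host of SNORA78, had 57, 93 and 60 estimated counts against 41, 52 and 56, without overlap, and did not pass (0.49 ± 0.27; edgeR adjusted p = 0.176). SNHG31, with at most 87 estimated counts in any library, overlapped (-0.15 ± 0.35).

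The Cajal body RNA hosts were the least abundant class. SNHG21, host of SCARNA15 (chromosome 15, 82750564 to 82757206), was at 4.04, 3.80 and 4.46 CPM in overexpression and at 2.54, 2.64 and 2.25 CPM in vector, 1.66-fold higher (log2 fold change 0.73 ± 0.17; edgeR adjusted p = 0.00829). SNHG22, host of SCARNA17 (chromosome 18, 49814023 to 49851059), had 67, 60 and 49 estimated counts against 4, 7 and 18. SNHG28 (chromosome 1, 159834495 to 159855237) had 182, 62 and 142 estimated counts against 2, 0 and 0. SNHG22 and SNHG28 are described although their means are under 100 estimated counts, a choice made after their values were seen. Both passed (edgeR adjusted p = 0.00445 and 0.000298), but at least 2 of 3 vector libraries were under the floor of 12 estimated counts, so the sizes are uncertain. The fitted log2 fold change of SNHG22 was 2.61, or 3.43 without vector replicate 3. That of SNHG28 was 7.38, with overexpression replicate 2 well below its fellows, and 10.1 without vector replicate 1 or 6.76 without vector replicate 2. MYO5B, which overlaps SNHG22 on the opposite strand, rose too (1.15 ± 0.24; edgeR adjusted p = 0.00468).

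Libraries of this kind capture few of the small RNAs themselves, and 4 of the 147 small RNAs that RefSeq places within members could be tested. Of 136 listed in the table, 54 were at 0 in every library and 127 stayed under 12 estimated counts. The C/D snoRNAs below show the paired boxes that define the class, with capitals for box C near the start and box D near the end, and SNORA73B shows the closing ACA of an H/ACA snoRNA in capitals. The sequences are those of GENCODE 29 (GRCh38).
SNORD48: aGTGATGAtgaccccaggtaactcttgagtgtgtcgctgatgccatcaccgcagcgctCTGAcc
SNORD104: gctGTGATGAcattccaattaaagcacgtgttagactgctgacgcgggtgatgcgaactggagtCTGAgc
SNORA73B: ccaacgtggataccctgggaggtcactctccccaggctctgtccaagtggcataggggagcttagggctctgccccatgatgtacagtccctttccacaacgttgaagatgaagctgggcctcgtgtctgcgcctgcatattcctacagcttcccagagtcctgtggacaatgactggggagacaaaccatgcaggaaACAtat
They lie at chr6:31835263-31835326, chr17:64146083-64146152 and chr1:28508559-28508762, all on the plus strand. SNORA73B, within SNHG3, had 98, 88 and 75 estimated counts in overexpression and 42, 56 and 55 in vector, so its groups did not overlap (log2 fold change 0.79, edgeR adjusted p = 0.0299). Its host SNHG3 had -0.17 and was not called, as given above. This call was lost without each library in turn (adjusted p from 0.0517 to 0.107), with DESeq2 (0.086), with no filter (0.072) and with the replicate block (0.0726). SNORD104, within SNHG25, had 38, 38 and 28 against 19, 22 and 17 (0.85, adjusted p = 0.0873), and SNORA71B, within SNHG17, 34, 25 and 62 against 79, 61 and 105 (-1.0, adjusted p = 0.101). SNORD48, within SNHG32, had 30, 16 and 16 against 17, 21 and 30, with no separation (-0.11, adjusted p = 0.874) where its host rose.

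Several host genes start close to a coding gene on the other strand, and these pairs moved together in some cases and apart in others. Of 8 members with such a tested neighbour within 2000 bases, GAS5 and SNHG1 rose with theirs. SLC3A2, the heavy chain of amino acid transporters, starts 188 bases from SNHG1 in GENCODE 29 and had 342 ± 2.72 CPM in overexpression and 265 ± 12.2 CPM in vector (SD, n = 3; log2 fold change 0.37 ± 0.046; edgeR adjusted p = 0.000399). ZBTB37, a zinc finger gene whose start lies 800 bases inside GAS5, had 114 ± 3.09 against 66.6 ± 3.46 CPM (0.78 ± 0.054; edgeR adjusted p = 2.1e-05). ZNFX1, by contrast, fell by 0.18 on the log2 scale where ZFAS1 rose (adjusted p = 0.0218), a call lost without overexpression replicate 1 or 2 (adjusted p = 0.0938 and 0.0655), with upper-quartile factors (0.0836) and with the replicate block (0.0502). ACAA2, which starts 63 bases from SNHG22, and RPS2, 99 bases from SNHG9, did not pass (-0.16 ± 0.075 and -0.07 ± 0.055). The members SNHG10, SNHG19 and SNHG31 were not called beside GLRX5, TRAF7 and BARD1, which had log2 fold changes of -0.33, -0.25 and 0.39 (edgeR adjusted p = 0.00131, 0.0264 and 0.00142). The TRAF7 call was lost without overexpression replicate 1 or 2 (adjusted p = 0.0923 and 0.107), with upper-quartile factors (0.075) and with the replicate block (0.0594).

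**Figure D3:**
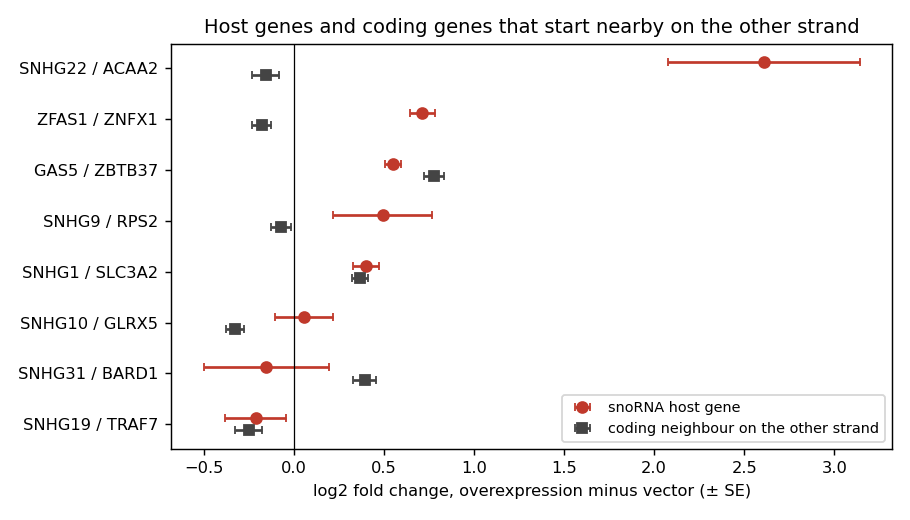
Log2 fold change, overexpression minus vector, with standard errors, for 8 host genes (red circles) and the coding gene that starts within 2000 bases on the other strand (grey squares). The symbols nearly coincide for SNHG1 and SLC3A2, at 0.40 and 0.37, and lie on opposite sides of 0 for ZFAS1 and ZNFX1.

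The stretch between SNHG1 and SLC3A2 is shown because its flanking genes rose by nearly the same amount. It reads on the strand of SNHG1 (chr11:62855836-62856105, minus strand, RefSeq, GRCh38.p14), with capitals for the 50 bases from the SNHG1 start on.
SNHG1 and SLC3A2: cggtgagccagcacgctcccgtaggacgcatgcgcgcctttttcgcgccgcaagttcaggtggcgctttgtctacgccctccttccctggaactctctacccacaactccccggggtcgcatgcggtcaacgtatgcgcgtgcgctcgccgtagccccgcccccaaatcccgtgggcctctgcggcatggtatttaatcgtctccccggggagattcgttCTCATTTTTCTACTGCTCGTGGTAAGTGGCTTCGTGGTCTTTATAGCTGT
Neither the cyclic AMP response element TGACGTCA, nor the C/EBP-ATF element TGATGNAA, nor the E-box CACGTG was found in it on either strand. Over the 28 member promoters of 300 bases these letters were found in 0, 0 and 2 (SNHG7 and SNHG30), against 1.85%, 3.62% and 7.26% of all promoters in the table. No match says only that these letters are not in the window.

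Around the members, the coding genes within 1 Mb of the start gave medians from -0.52 (45 genes around SNHG7, which itself fell) to 0.51 (4 genes around SNHG14, which rose). For ZFAS1, SNHG1 and GAS5 these medians were -0.16 (14 genes), -0.09 (36 genes) and 0.07 (8 genes), against changes of 0.71, 0.40 and 0.55 in the members. For SNHG15 and SNHG16 they were 0.07 (19 genes) and -0.07 (33 genes), against -0.68 and -0.59. The part of the surroundings in the change of SNHG7 and SNHG14 was not tested. DIPK1B, which overlaps SNHG7 on the opposite strand, fell as well (-0.996 ± 0.16; edgeR adjusted p = 0.00141), and so did RCC1, which shares exon sequence with SNHG3 (-0.43 ± 0.089; edgeR adjusted p = 0.00517). LRRC75A, which overlaps SNHG29 on the opposite strand, rose (0.68 ± 0.18; edgeR adjusted p = 0.0142), a call lost when overexpression replicate 1, overexpression replicate 2, vector replicate 1 or vector replicate 3 was left out (adjusted p from 0.0521 to 0.0626).

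Coding genes that carry snoRNAs in their introns were more often lower than higher. Of 30 such genes outside the ribosomal protein family, 18 fell and 1 rose (median log2 fold change -0.35), where 23.4% and 22.6% of all genes tested did. The shares were 31.1% and 26.8% for genes averaging 100 estimated counts or more. HSPA8, a constitutive chaperone gene, fell from 1892 to 409 CPM (-2.21 ± 0.039; edgeR adjusted p = 6.25e-08), and NOP56, a core protein of C/D particles that itself hosts snoRNAs, from 370 to 209 CPM (-0.83 ± 0.041; edgeR adjusted p = 5.07e-06). PRRC2A was the one that rose (0.15 ± 0.039; edgeR adjusted p = 0.0155), and that call was lost when overexpression replicate 2, overexpression replicate 3 or vector replicate 1 was left out (adjusted p from 0.0542 to 0.068), with no filter (0.0631) and with the replicate block (0.0502). Across the alternatives 0 to 2 genes of this list rose. Of 25 ribosomal protein genes that host snoRNAs, 4 rose (16.0%) and 6 fell (24.0%, near the share of all genes; median -0.08); RPL7A and RPS13 fell by 0.61 and 0.48. Without vector replicate 2, 10 of them rose. The difference between noncoding and coding hosts was not tested as such.

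Genes for the proteins of snoRNA particles were mostly lower: of 20 core and assembly factors, 11 fell (55.0%) and 3 rose (15%), against 23.4% and 22.6% of all genes tested (median log2 fold change -0.25). Genes averaging 100 estimated counts or more had shares of 31.1% lower and 26.8% higher. NOLC1, a chaperone of these particles, fell from 414 to 201 CPM (-1.04 ± 0.067; edgeR adjusted p = 1.44e-05), as did NOP56. The small H/ACA protein gene NOP10 and the ATPase gene RUVBL2 rose (0.55 ± 0.058 and 0.37 ± 0.042; edgeR adjusted p = 0.000158 and 0.000234). Among 20 other genes with terminal oligopyrimidine mRNAs, 9 fell (45.0%) and 1, EIF3H, rose (5.0%; median -0.20). NACA and EIF3L, of the nascent chain and initiation machinery, fell by 0.45 and 0.46, while EIF3H had 0.18 ± 0.047 (edgeR adjusted p = 0.0131; not called without overexpression replicate 2 or vector replicate 1, 0.0613 and 0.0589). Without vector replicate 2, 6 of these genes rose.

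**Figure D4:**
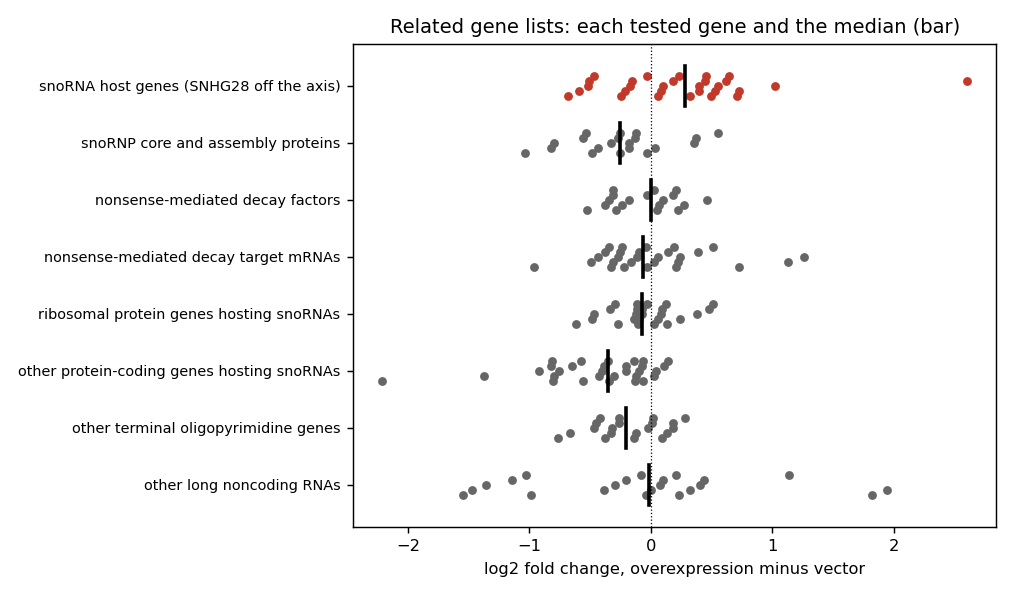
Log2 fold change, overexpression minus vector, of each tested gene (points) and the median (bar) in the host genes and in 7 related lists. The bar of the host genes stands at 0.28, those of snoRNA particle proteins and of other coding hosts at -0.25 and -0.35, and SNHG28, at 7.38, is off the axis.

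Genes of the decay pathway moved both ways. Of 18 nonsense-mediated decay factors, 8 fell (44.4%) and 3 rose (16.7%), against 23.4% and 22.6% of all genes tested (median log2 fold change about 0, at -0.00035). At an average of 100 estimated counts or more, 31.1% of genes fell and 26.8% rose. UPF1, the helicase at the centre of the pathway, fell from 364 to 253 CPM (-0.53 ± 0.041; edgeR adjusted p = 3.41e-05), and the exon junction gene EIF4A3 by 0.35, while XRN1, the exonuclease that degrades uncapped RNA, rose by 0.46 ± 0.11 (edgeR adjusted p = 0.0101). Without overexpression replicate 3 or vector replicate 1, or with no filter, 1 of the 18 factors rose. Of 28 genes with mRNAs known as targets of the pathway, 7 rose (25.0%, near the share of all genes) and 10 fell (35.7%, median -0.07). The counts are per gene symbol and do not separate transcript forms, so they do not show how the decayed forms changed. DDIT3 and ATF4, stress response factors, rose by 1.26 and 0.51, and the splicing factor genes SRSF2 and SRSF7 fell by 0.34 and 0.33. Among 22 tested long noncoding RNAs that host no member of this family, 7 rose (31.8%) and 9 fell (40.9%; median -0.02), with MALAT1 and CRNDE rising by 1.82 and 1.14 and MIR17HG and NEAT1 falling by 1.47 and 1.55. Without overexpression replicate 1 or vector replicate 1, 4 of these rose.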

How the data were processed

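The authors deposited whole-number estimated counts per gene symbol, 1 column per library. Per the submitters' processing notes they used fastp 0.23.2, STAR 2.7.10a, StringTie and DESeq2 on hg38. Which annotation they counted on, and whether by strand, is not given in the sources used here. In each column 4 was more frequent than 3, as if 1 read pair added about 4, but 1 was more frequent than either (2716 to 3651 genes), and 7 exceeded 8 in vector replicate 2 (543 against 509 genes). A floor of 3 read pairs was taken as 12 estimated counts per library. That unit is not settled, and no counting interval is given. Groups were compared with edgeR 4.0.16 (R 4.3.3), using its default filter, TMM factors and its quasi-likelihood F test without covariates, with Benjamini-Hochberg adjustment over all 21055 genes and a threshold of 0.05; standard errors came from the F statistic. CPM are estimated counts relative to the TMM-scaled library total. On simulated counts for 20377 genes of these 6 libraries, 67, 67 and 66 genes were changed 1.5-fold, 2-fold and 4-fold. Of these, 70.1%, 77.6% and 98.5% were recovered, with 8 false among 172 calls. Far fewer genes changed there than the 46.1% called in the data, so these rates need not hold for this comparison. Members and lists were chosen with earlier results of these data known. Every member is named. GAS5, ZFAS1, EPB41L4A-AS1, DANCR, SNHG1, SNHG14, SNHG32 and the called members averaging 100 estimated counts or more are given by library, and each list by up to 2 risen and 2 fallen genes of smallest adjusted p. Some genes that this rule would name are not reported here. Positions and exon lengths came from GENCODE 29 on GRCh38 (all 32 members matched), small RNAs and promoters from RefSeq. Alternatives were DESeq2 1.42.0, limma-voom (limma 3.58.1), other scaling factors and filters, a block for the replicate number, leaving out each library, and estimated counts divided by 4, which was added after seeing the data.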

Additional observations from a re-analysis of the deposited data

How the results depend on the processing

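The 13 members called higher and 5 called lower became 12 to 14 and 5 under DESeq2, limma-voom, DESeq2 size factors, upper-quartile factors, no filter, a stricter filter, the replicate block and division by 4. Requiring 1.5-fold left 6 and 2. With 1 library left out they ranged from 11 to 16 and from 5 to 6, and the difference in the members' share of counts from 0.0408 to 0.0441 percentage points (0.0419 with all libraries). Deviations of same-numbered libraries over all genes had correlations of 0.00521, 0.00125 and 0.023. Those of differently numbered libraries ran from -0.0172 to 0.0123. Values this near 0 cannot settle whether a number marks a shared culture or batch, which the labels do not say. With the replicate block 14 members were higher and 5 lower, and 8690 genes in all were called. Upper-quartile factors turned DANCR to 0.02 and moved the median of all genes from 0.016 to 0.065. Leaving out 1 library turned uncalled changes. DANCR ranged from -0.145 to 0.18 (above 0 without vector replicate 2), SNHG10 from -0.0714 to 0.225 (below 0 without overexpression replicate 1 or vector replicate 3), SNHG30 from -0.0478 to 0.348 (below 0 without vector replicate 1 or 3), SNHG31 from -0.499 to 0.0663 (above 0 without overexpression replicate 2 or vector replicate 1) and SNORD48 from -0.513 to 0.151 (above 0 without overexpression replicate 2 or 3 or vector replicate 3). SNORA71B passed without overexpression replicate 3 (-1.51, adjusted p = 0.0374) or vector replicate 2 (-1.27, 0.035) and with the block (-1.07, 0.0369), MATR3 without overexpression replicate 2 (0.43, 0.0226) and ACAA2 without vector replicate 1 (-0.23, 0.0402). The causes of these shifts were not tested. With 3 libraries a group, the spread and an unsettled count unit limit members under about 100 estimated counts.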
